A study of Drosophila melanogaster with 3 samples.

Results

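Isolated single-gene promoters were defined as transcription start sites (TSSs) of protein-coding genes with an empty stretch before them: no protein-coding TSS of another gene on the opposite strand and no 3' end of a protein-coding gene on the same strand within 500 bp upstream. A peak summit belonged to such a promoter when this TSS was the nearest protein-coding TSS and lay within 500 bp. Of the 5202 summits in the optimal, reproducible peak set, 1463 met both conditions, and 1235 of them lay upstream and 228 downstream of the TSS. The other promoter summits were 1014 at head-to-head promoters, where another gene starts on the opposite strand within 500 bp upstream, and 455 at tandem promoters, where a gene on the same strand ends within that distance. The remaining 2270 summits had no protein-coding TSS within 500 bp.

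The data came from chromatin immunoprecipitation and sequencing (ChIP-seq) of the protein encoded by CG12155, fused at its C terminus to the green fluorescent protein eGFP in a transgenic line of Drosophila melanogaster, and precipitated with an antibody against GFP. There was 1 group, of 3 biological replicates, each from whole embryos of both sexes between 0 and 24 h of age, so every value averages over all embryonic cell types and stages. Chromatin had been sonicated to fragments of 200 to 800 bp. No control experiment was analysed here, so whether a peak needs the fusion protein was not tested. The files list peaks without read counts, so the depth behind each value is unknown, and peaks are compared only by their rank of signal within a list, where rank 1 is the strongest.

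A core promoter is the short stretch around a TSS on which RNA polymerase II assembles. In Drosophila, genes that every cell uses often carry the DNA replication-related element (DRE), bound by the factor Dref, whose inner bases are also read by the insulator protein BEAF-32, while many tissue-specific genes carry a TATA box or an initiator. Genes are densely packed in this genome, and head-to-head neighbours can share 1 stretch of regulatory DNA, which makes an isolated promoter the simpler case for placing a summit relative to a single gene.

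The sequences under the strongest isolated upstream summits, and under further strong ones that hold each of 3 motifs treated below and no UTR sequence, are shown for the bases that the summits centre on. Each is dm6 sequence, taken from the RefSeq copy of Release 6, read 5' to 3' on the strand of the gene, from 50 bp before to 50 bp after the summit, and it stops before the TSS where that is nearer. In the first 5, capitals mark the half-DRE, CGATA, on either strand. CG42724 (chr3R:6368330-6368430, minus strand) and the homeodomain gene Ptx1 (chr3R:30912557-30912657, plus strand) have none, l(3)psg2 (chr3L:5583407-5583507, plus strand) holds a full DRE and a further half-DRE, Rab11 (chr3R:21111323-21111407, plus strand) has 4 separate copies, and gro (chr3R:26041676-26041735, plus strand) has 1. In the last 4, capitals mark a TATA box (TATAAA, on either strand) at CG31145 (chr3R:23669808-23669908, minus strand) and pyd (chr3R:8932062-8932162, minus strand). At nej (chrX:9685924-9686024, minus strand) and agt (chr3R:6660101-6660191, minus strand) they mark the letters AGATAA of GATA factors, on either strand. Only the motif a window is shown for is in capitals: the window of CG42724 also holds the TATA box letters and that of nej a half-DRE, both in lower case.
CG42724: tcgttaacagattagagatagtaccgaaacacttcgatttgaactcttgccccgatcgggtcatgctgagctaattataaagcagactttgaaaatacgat
l(3)psg2: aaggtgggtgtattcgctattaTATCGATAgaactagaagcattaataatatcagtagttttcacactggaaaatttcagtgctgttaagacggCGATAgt
Ptx1: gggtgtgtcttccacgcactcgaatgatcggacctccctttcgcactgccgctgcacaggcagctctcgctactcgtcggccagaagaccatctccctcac
Rab11: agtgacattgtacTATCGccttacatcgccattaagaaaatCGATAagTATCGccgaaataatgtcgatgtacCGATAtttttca
gro: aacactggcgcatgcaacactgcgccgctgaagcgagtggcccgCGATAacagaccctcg
CG31145: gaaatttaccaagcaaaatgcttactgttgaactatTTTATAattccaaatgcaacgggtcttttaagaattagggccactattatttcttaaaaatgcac
pyd: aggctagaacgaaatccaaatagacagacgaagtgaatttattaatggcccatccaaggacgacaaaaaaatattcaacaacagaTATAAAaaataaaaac
nej: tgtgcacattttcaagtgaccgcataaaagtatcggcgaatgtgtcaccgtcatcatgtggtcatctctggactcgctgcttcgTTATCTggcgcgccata
agt: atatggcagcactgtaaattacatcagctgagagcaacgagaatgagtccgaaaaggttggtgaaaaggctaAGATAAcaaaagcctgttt
The 9 windows differ widely in base composition, from 30.7% GC at CG31145 to 63.3% GC at gro. All 9 summits were supported by all 3 replicates.

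The strongest isolated summit lay 92 bp upstream of CG42724, at rank 4 in the optimal set and at rank 4 in replicate 1, in replicate 2 and in replicate 3. Next came l(3)psg2 at 212 bp upstream (rank 5, and ranks 6, 5 and 11 in replicates 1, 2 and 3) and Ptx1, a transcription factor of the Pitx family, at 147 bp upstream (rank 8, and ranks 9, 11 and 9). These 3 summits kept places among the strongest 11 regions of every replicate. The zinc finger genes zf30C and D19A followed with summits at 140 bp and 13 bp upstream (ranks 10 and 16). The phosphatidylinositol 4-kinase gene fwd had its summit at 52 bp upstream, with rank 11 in the optimal set and ranks 10, 14 and 13 in the replicates. Among the 15 strongest genes on the upstream side were also nej, the CBP histone acetyltransferase (rank 24), Rab11, a GTPase of recycling endosomes (rank 28), and gro, the Groucho corepressor (rank 37). By ratio of ranks, the widest disagreement between replicates among these 15 was at Ugalt, a UDP-galactose transporter, with ranks 36, 12 and 6 around rank 14 in the optimal set.

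**Figure D1:**
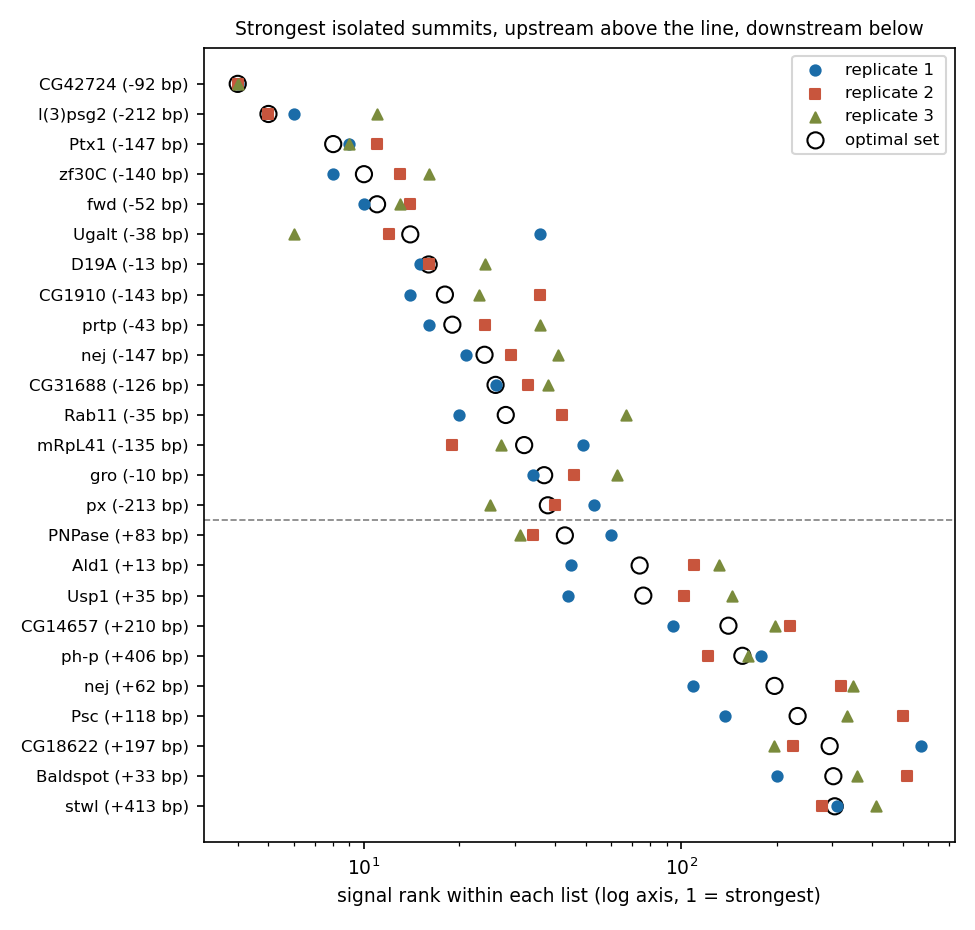
Signal rank (horizontal log axis, 1 is the strongest) of the 15 strongest upstream and the 10 strongest downstream isolated summits supported by all 3 replicates, with the distance from the TSS in bp beside each gene. Open circles are the optimal set and filled marks the replicates, and the strongest downstream summit, PNPase at rank 43, follows all 15 upstream ones.

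The strongest summits on the downstream side ranked lower. PNPase, the gene of the mitochondrial RNA-processing enzyme polynucleotide phosphorylase, had a summit at 83 bp downstream of the TSS, in its 5' UTR, with rank 43 in the optimal set and ranks 60, 34 and 31 in the replicates. Ald1, the glycolytic enzyme aldolase, and Usp1, a deubiquitinase, followed at 13 bp and 35 bp downstream (ranks 74 and 76). A pair of Polycomb repressive complex genes was among the 10 named on this side. The Polycomb gene ph-p had a summit at 406 bp downstream (rank 156, and ranks 178, 122 and 162), and Psc had one at 118 bp downstream (rank 233, and ranks 138, 500 and 333). The 10 named summits ended with stwl, a germline chromatin gene, at 413 bp downstream and rank 305.

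Several genes carried more than 1 isolated summit. Of the 1270 genes with at least 1, 160 had more than 1, 5 had 4 and 2 had 5. One of these last was Rtnl1, which encodes a reticulon of the endoplasmic reticulum, with all 5 summits upstream of internal TSSs at distances of 140 to 344 bp and ranks from 129 to 1585. The other was Tlk, which encodes the Tousled-like kinase, with summits on both sides of its TSSs and ranks from 468 to 5157. The 4 summits at nej were listed within 1 interval of 3350 bp, and the 4 at gro within 1 interval of 1719 bp. Summits listed within 1 interval were not treated as independent observations. Summits sharing an interval with another optimal peak made up 43 of the 1463. Of the 1372 TSS positions with a summit assigned to them, 23 had summits on both sides.

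The rule limits neighbours on the upstream side only, and only protein-coding ones. Of the isolated summits, 181 (12.4%) lay inside another protein-coding gene, and 81 (5.54%) belonged to a TSS with the start of a non-coding gene within 500 bp. Summits just inside the distance limit were those of CG15172 at 500 bp, CG13297 at 500 bp and capu at 498 bp upstream (ranks 2111, 5187 and 4264). Just outside it were CG17896 at 501 bp, tsh at 502 bp and jim at 503 bp upstream (ranks 133, 2319 and 4730). The promoter of CG12155 itself, the tagged gene, held a summit at 52 bp upstream with rank 1483, but it is a head-to-head promoter.

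Isolated summits made up 49.9% of the 2932 promoter summits (95% Wilson interval 48.1 to 51.7%, for counting error only). Each replicate was then treated alone by taking its own 5202 strongest regions, which gave 1544, 1442 and 1436 isolated summits in replicates 1, 2 and 3. Their share of promoter summits was 50.6, 51.1 and 49.9% (mean 50.5 ± 0.61% SD, n = 3). The replicates thus differed by little more than 1 percentage point. The optimal set is drawn from the pool of the same libraries, so these values measure the spread between replicates and do not replicate the set independently.

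Besides the motif comparisons, 31 differences were computed within each replicate and tested over the 3 replicates with an exact two-sided sign-flip permutation test, and values set side by side without an SD were not tested. With 3 replicates this exact permutation test cannot go below p = 0.25, so no difference could pass 0.05, and 30 of the 31 reached that smallest value, which becomes 0.26 after Benjamini-Hochberg adjustment. For tested differences the text therefore gives the size, the SD over replicates and the number of replicates that share its direction. Summits and promoters are not replicates, and no test was made over them.

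Isolated summits lay mostly upstream of the gene. The upstream side held 84.4% of them (95% Wilson interval 82.5 to 86.2%), with 82.1, 85.0 and 83.8% in replicates 1, 2 and 3 (mean 83.6 ± 1.46% SD, n = 3). The median position of all isolated summits was 142 bp upstream of the TSS, against 130, 154 and 141.5 bp upstream in the replicates. Upstream summits had their median at 172 bp and their middle 50% between 273 and 92.5 bp before the TSS. Downstream summits had their median at 89.5 bp after the TSS. The upstream share was similar at tandem promoters, at 83.3%, and the difference of 1.12 percentage points between isolated and tandem promoters was positive in 3 of 3 replicates (mean 1.34 ± 0.83 SD).

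Summits on the upstream side lay further from the TSS at isolated than at tandem promoters. The median upstream summit lay 172 bp before the TSS at isolated promoters, against 90 bp at tandem and 84 bp at head-to-head promoters. In replicates 1, 2 and 3 the isolated median was 162, 184 and 174 bp, against 82, 103 and 89 bp at tandem promoters, and the groups did not overlap. The isolated minus tandem difference averaged -82.0 ± 2.65 bp (SD, n = 3; exact permutation p = 0.25, the smallest possible). Summits more than 250 bp upstream made up 29.1% of isolated upstream summits, against 6.07% of tandem ones. None of the 805 head-to-head upstream summits lay that far, which the rule fixes: a summit past the midpoint between both TSSs is assigned to the other gene. The same rule limits the head-to-head median.

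**Figure D2:**
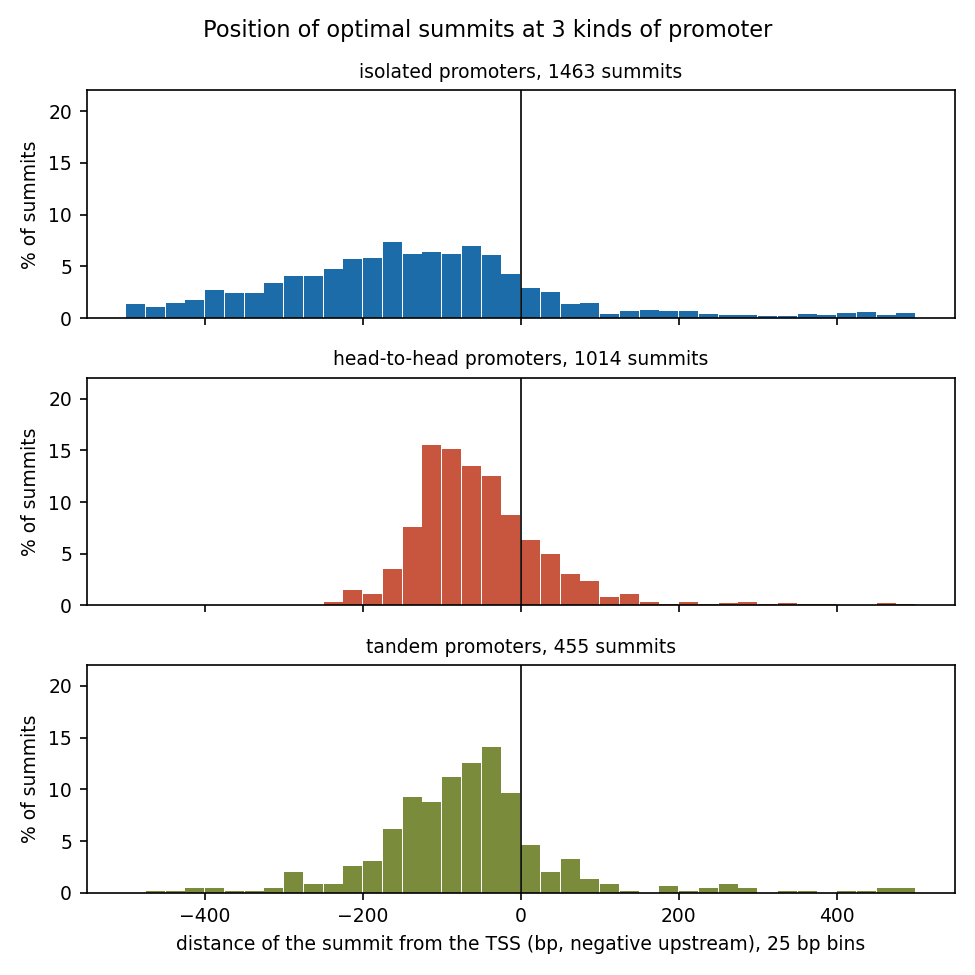
Distribution of summit positions relative to the nearest TSS (horizontal axis in bp, negative upstream, bins of 25 bp) as a percent of the summits at isolated, head-to-head and tandem promoters of the optimal set. Isolated summits spread across the upstream side, with a median at 172 bp for upstream ones, while tandem upstream summits have their median at 90 bp.

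Most upstream summits were outside the gene, and downstream ones mostly in a 5' UTR. The rule sets part of this, since a summit before the most upstream TSS of a gene lies outside that gene. A summit in a 5' UTR of any transcript of its gene was counted as 5' UTR. Of the 1235 upstream summits, 63.6% lay outside their own gene, 31.3% in one of its introns, before an internal TSS, and 4.94% in a 5' UTR of another of its transcripts. Of the 228 downstream summits, 71.5% lay in a 5' UTR, 26.8% in an intron and 1.75% in coding sequence. None of either side was in a 3' UTR of its own gene, which a place within 500 bp of that gene's TSS makes unlikely from the start. Whether summits lay in the 3' UTR of another gene was not checked. The most upstream TSS of the gene was the nearest one for 62.0% of all isolated summits.

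By median rank, the isolated summits closest to the TSS were not the strongest. Single strong summits did lie there, such as D19A at 13 bp upstream (rank 16) and gro at 10 bp upstream (rank 37). Isolated summits 151 to 250 bp upstream had a median rank of 1931.5 in the optimal set. In replicates 1, 2 and 3 it was 1734, 1945.5 and 1841. Those 1 to 50 bp upstream had a median rank of 3030.5, and of 2944.5, 2944 and 3209 in the replicates. The more distant band was the stronger in 3 of 3 replicates (mean difference -1192 ± 185 ranks SD). Support was counted as an overlap with the 5202 strongest regions of a replicate. All 3 replicates supported 79.5% of the summits 151 to 250 bp upstream and 66.4% of those 1 to 50 bp upstream. The highest support, 81.1%, was at summits 151 to 500 bp downstream, whose median rank was 2874. Upstream summits had a median rank of 2412 in the optimal set, against 2878.5 for downstream ones. In the replicates the upstream medians were 2461, 2388 and 2409, against downstream medians of 2801, 2884 and 3144 (mean difference -524 ± 199 ranks SD, stronger upstream in 3 of 3). When only optimal summits supported by both other replicates were kept, the difference was -121 ranks without replicate 1, -339 without replicate 2 and -406 without replicate 3, against -466.5 in the full optimal set. It was -95.5 among the strongest 50% of optimal summits, whose range of ranks is shorter by construction, -240.5 with support of all 3 replicates and -273.5 with 1 TSS per gene.

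Counted over all summits, including those away from promoters, isolated summits had a larger share among strong peaks. They made up 32.2% of the 1300 strongest and 26.4% of the 1300 weakest summits of the optimal set. The difference averaged 5.54 ± 0.60 percentage points over replicates (SD, n = 3). Counted over promoter summits alone, their share was not larger, at 47.7% in the strongest 50% of the optimal set, against 49.9% in the full set. Of the isolated summits, 87.4% were upstream among the strongest 1300 and 81.6% among the weakest. This shift was larger in the replicates than in the optimal set, at 7.16, 10.6 and 10.2 percentage points.

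Isolated promoters held a summit less often than head-to-head ones. Within 500 bp of the TSS on either side, whatever its nearest TSS, a summit was found at 15.3% of the 11974 isolated TSS positions, against 24.0% of all 19253 protein-coding TSS positions. The share was 52.0% of 4344 head-to-head positions and 18.0% of 2935 tandem positions. In replicates 1, 2 and 3 it was 15.9, 14.97 and 14.92% of isolated promoters, against 51.7, 49.7 and 49.6% of head-to-head ones, so that the groups stood far apart (mean difference -35.1 ± 0.69 percentage points SD). A head-to-head pair has both TSSs within reach of 1 summit, so 1 summit often counts at both. When genes rather than TSSs were counted, a choice made after seeing the data, the isolated minus head-to-head difference in the optimal set was -33.3 percentage points (mean over replicates -32.0 ± 0.64 SD). The isolated minus tandem difference was -2.67 percentage points and lower in 3 of 3 replicates (mean -2.02 ± 1.00 SD). Its direction turned with a promoter window of 1000 bp (1.74 percentage points) and with an isolation distance of 250 bp (7.82), and with summits supported by the other replicates only it was -1.39 without replicate 1, -2.44 without replicate 2 and -1.35 without replicate 3.

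Summit strength separated the kinds of promoter in the same replicates. Isolated summits had a median rank of 2468, weaker than head-to-head ones at 2039 and stronger than tandem ones at 2804. In replicates 1, 2 and 3 the isolated medians were 2547, 2482 and 2495, against 2057.5, 1979 and 1968 at head-to-head and 2840, 2664 and 2707 at tandem promoters. The isolated values fell between the others in every replicate (mean differences of 507 ± 18.99 ranks from head-to-head and -229 ± 57.4 ranks from tandem summits, SD). Among the strongest 50% of the optimal summits the head-to-head difference was gone, at -9.5 ranks, and among summits supported by the other replicates it was 313 ranks without replicate 1, 283.5 without replicate 2 and 289 without replicate 3.

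All 3 replicates supported 1090 of the 1463 isolated summits, 74.5%, close to the 73.2% of all 5202 optimal summits. The share was 74.8% of upstream and 72.8% of downstream isolated summits, 80.3% of head-to-head and 71.2% of tandem summits. For isolated minus all other promoter summits it came to -2.96 percentage points. By support in a single replicate the difference was -1.53, 0.63 and -1.89 percentage points in replicates 1, 2 and 3 (mean -0.93 ± 1.36 SD), with replicate 2 in the opposite direction. The difference for support by all 3 changed sign at isolation distances of 250 bp (3.21) and 1000 bp (0.45) and among the strongest 50% of summits (0.79). Only 4 isolated summits were supported by no replicate. Counting promoters instead, 2412 isolated TSS positions had a summit in at least 1 replicate, of which 1295 had one in all 3 (53.7%), against 69.1% of the head-to-head and 56.9% of the tandem positions counted this way.

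**Figure D3:**
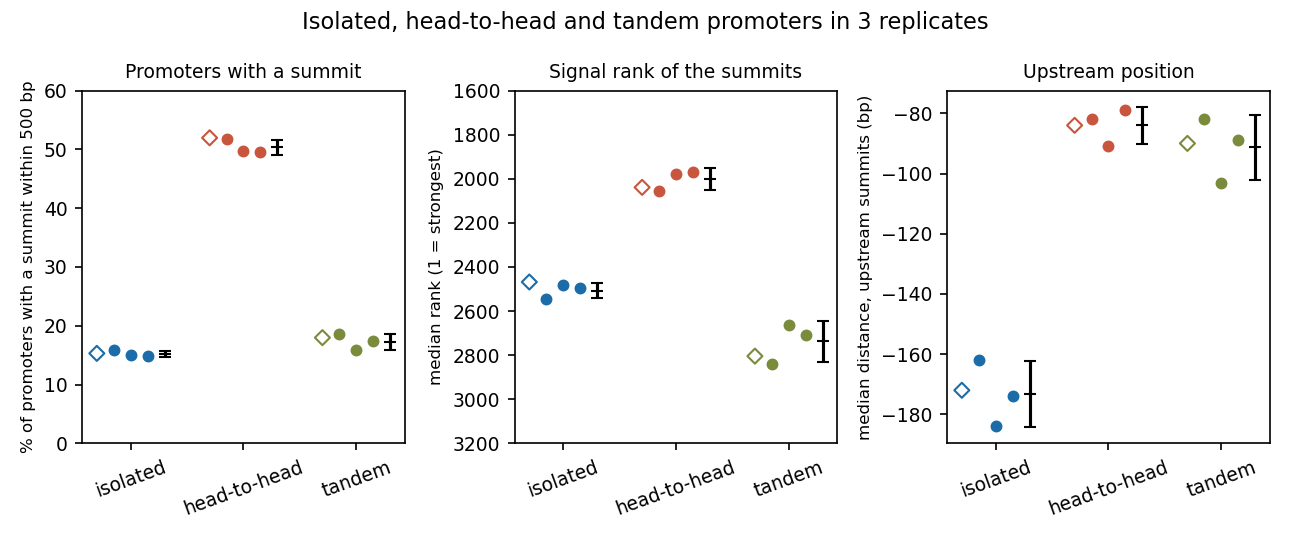
Share of promoters with a summit within 500 bp, median signal rank of the summits (axis inverted, strongest at the top) and median distance of upstream summits, for isolated, head-to-head and tandem promoters. Filled points are the 3 replicates, open diamonds the optimal set and black bars the mean ± SD. Isolated promoters have the lowest share in each replicate, 15.9, 14.97 and 14.92%, and the most distant upstream summits. The nearest-TSS rule limits the distance at head-to-head promoters.

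Genes with an isolated summit were long and had many start sites. Their median length was 6122 bp, against 2279 bp for the other genes with an isolated promoter, and the replicate values of 6376, 6278 and 6177 bp stayed close together. They had 2.24 TSS positions per gene on average, against 1.46 in the others. A gene with more TSSs has more places where a summit can be counted, so the share of TSS positions with a summit was also taken by the number of TSSs in the gene. That share was 10.5% where the gene has 1 TSS position, 18.4% where it has 2 and 20.2% where it has 3 or more. A summit within 500 bp of several TSSs of 1 gene counted at each of them, so genes with close TSSs can still reach a higher share. In genes with several TSSs the share was 21.5% for the most upstream isolated TSS and 18.4% for later ones (mean difference 3.01 ± 0.20 percentage points SD, positive in 3 of 3). By chromosome, it was lowest on the small chromosome 4, at 6.504% of 123 positions (95% Wilson interval 3.33 to 12.3%), and highest on X, at 16.3% of 2235.

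Of the 8523 genes with an isolated promoter, 1270 (14.9%) had an isolated summit, and this share is the background for the gene groups that follow. Each group was drawn by gene names. Head-to-head and tandem members were left out of its denominator. The groups are small, and no test was made over genes.

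Genes for cytoplasmic ribosomal proteins, the structural parts of the ribosome, had an isolated summit at 22 of the 43 that have an isolated promoter (51.2%, 95% Wilson interval 36.8 to 65.4%). Replicates 1, 2 and 3 gave 24, 20 and 18 of 43. Their summits were of middling strength, the strongest being RpL26 at 30 bp downstream (rank 1209), RpL23 at 132 bp upstream (rank 1263) and RpL22 at 80 bp upstream (rank 1484). Mitochondrial ribosomal protein genes seldom have an isolated promoter, and 2 of 7 had a summit, among them mRpL41 at 135 bp upstream with rank 32. Translation initiation factor genes had one at 5 of 23, led by eIF6 (rank 73), which acts on the large ribosomal subunit, and proteasome subunit genes at 4 of 23. Vacuolar ATPase genes, for the proton pump of acidic organelles, had one at 5 of 18, led by Vha16-1 at rank 65, and Rab GTPase genes at 3 of 15. Genes of respiratory complex I had one at 1 of 15, and aminoacyl-tRNA synthetase genes at none of 4. Heat shock protein and chaperone genes had one at 2 of 22, Hsp27 at 140 bp upstream (rank 191) and Hsp22 at 480 bp upstream (rank 2625).

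Among nuclear genes, those of the cell cycle and replication had an isolated summit at 8 of 15, including the E2F partner Dp (rank 417), the helicase subunit Mcm2 (rank 862) and the cyclin gene CycE (rank 1168). Polycomb group genes had one at 6 of 12. Besides its downstream summit, ph-p had one 483 bp upstream of another TSS at rank 40 (ranks 69, 28 and 22 in the replicates), and Pc itself ranked 2669. Trithorax group and remodeller genes had one at 4 of 10, led by the Mediator kinase-module gene skd (rank 106) and by Trl, which encodes GAGA factor (rank 480). Insulator and promoter factor genes, a group that also holds Trl, had one at 4 of 9. BEAF-32, whose protein binds the half-DRE, had one at 63 bp upstream (rank 1892). Genes of the piRNA pathway, which silences transposons in the germ line, had one at 2 of 7.

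Signalling and developmental genes were divided. Notch pathway genes had an isolated summit at 5 of 10, led by numb, an inhibitor of Notch, at 203 bp upstream (rank 339). Genes of the ecdysone and juvenile hormone response had one at 6 of 15, with 3 of them upstream and 3 downstream, including the nuclear receptor genes Eip75B (rank 1242) and Hr39 (rank 1805). Wingless and Hedgehog pathway genes had one at 3 of 13, and Dpp and dorsoventral genes at 2 of 16, led by the Dorsal inhibitor cact (rank 260). Segmentation genes had one at 1 of 17, the maternal gradient gene bcd at rank 2403, and homeotic genes at none of 8, although replicate 1 gave 1. A count of 0 among 8 allows a share of up to 37.5% at a floor of 3 counts. Genes of differentiated neurons had one at 1 of 14, elav at 276 bp upstream (rank 186), and muscle genes at 3 of 15.

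The largest groups of narrowly expressed genes had no isolated summit at all. There was none at the 122 chemosensory receptor genes with an isolated promoter, which allows a share of up to 2.46% at a floor of 3 counts, and none in replicate 1, 2 or 3. Nor was there one at the 64 cuticle protein genes, which allows up to 4.69%, in the optimal set or in any replicate. Both limits lie under the 14.9% of all genes with an isolated promoter.

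GC was lower at the upstream summits than in the windows 500 bp to either side. In the 101 bp centred on them, GC averaged 37.0%, against 39.5% in windows of the same length centred 500 bp further upstream and 45.9% in windows 500 bp downstream, within the gene. The replicates gave 37.3, 36.0 and 37.8% at the summit. Against the mean of both flanks the difference averaged -5.62 ± 0.97 percentage points, and against the upstream flank alone -2.32 ± 1.00 (SD, n = 3, lower in 3 of 3 for both). In bins of 25 bp the lowest value, 34.9%, was not at the summit but in the bin starting 75 bp before it, and the bin starting 25 bp after it had 38.6%. Downstream summits averaged 41.7% GC and differed from their flanks by -0.94 percentage points, with 1 replicate in the opposite direction.

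GC was lowest at the distant summits. Upstream summits within 150 bp of the TSS had 41.7% GC, and those 151 to 500 bp away had 33.5%. Near summits had 42.2, 40.1 and 42.5% GC in replicates 1, 2 and 3, and distant ones 33.2, 33.2 and 34.3%, so that the ranges lay well apart. At the same near distance, isolated summits were richer in GC than head-to-head ones, which had 34.1% in the optimal set and 34.1, 33.1 and 35.0% in the replicates (mean difference 7.56 ± 0.56 percentage points SD). Tandem summits within 150 bp had 39.6%, and 39.3, 38.2 and 39.8% in the replicates (mean difference 2.53 ± 0.49, isolated higher in 3 of 3). Distant tandem summits had 32.8% GC, beside the 33.5% of distant isolated ones. Isolated promoters that held a summit were themselves unlike those that did not: between 200 and 100 bp before the TSS they had 37.7% GC, against 40.5% (mean difference -2.66 ± 0.34 percentage points SD, lower in 3 of 3). Closer to the TSS the order was the other way, with 47.2% GC in the bin starting 50 bp upstream at promoters with a summit, against 43.5% at those without.

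**Figure D4:**
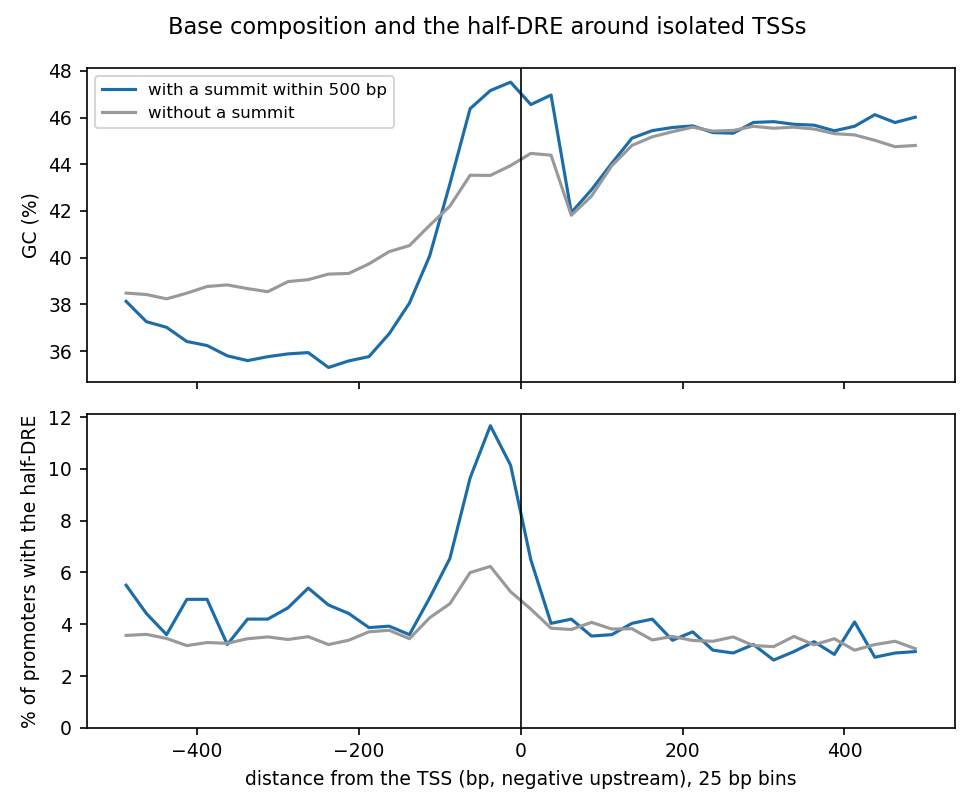
GC content (top, percent) and the percent of promoters whose half-DRE starts in each 25 bp bin (bottom), by distance from isolated TSSs in bp, for promoters with a summit within 500 bp (blue) and without one (grey). With a summit, GC is 35.3% in the bin starting 250 bp upstream, against 39.3% without, and the half-DRE reaches 11.7% in the bin starting 50 bp upstream, against 6.23%.

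A set of 16 short motifs was searched on both strands in the same windows, as a description of the sequence and not of bound factors. Those with a known role in promoters were the DRE (spelled TATCGATA), the half-DRE (spelled CGATA, and also found inside the DRE), the M1BP site (spelled GGTCACAC), Ohler motif 5, an E-box (spelled CAGCTG), Ohler motif 6 (spelled GTATNTTT), the TATA box (spelled in full as TATAAA), the initiator (spelled TCAGT) and the core of the downstream promoter element, DPE (spelled AGACG). Those named for a factor were the Myc-type E-box (spelled CACGTG), the sites of GAGA factor (spelled in full as GAGAG), of Zelda (spelled CAGGTA) and of GATA factors (spelled in full as AGATAA), and the cores of Pho sites (spelled GCCAT) and of CTCF sites (spelled AGGGGGC). The last ones were a CA repeat (spelled out as CACACA) and a run of A (spelled AAAAAA). At upstream summits 7 were more frequent than in the flanks in all 3 replicates, 6 were less frequent in all 3, and 3 were mixed. At downstream summits these numbers were 5, 5 and 6. The smallest adjusted value over these 32 comparisons was 0.35 (exact sign-flip permutation test, Benjamini-Hochberg), since 0.25 is the least the test can give.

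The half-DRE, marked in the sequences of l(3)psg2, Rab11 and gro, showed the widest gap on the upstream side. It was present in 23.3% of the 1235 windows (95% Wilson interval 21.0 to 25.8%), against 14.7% of upstream and 12.1% of downstream flanks, and in 19.9% of all optimal summit windows. The replicates had it in 22.2, 21.2 and 21.4% of summit windows, and the gap to the mean of the flanks averaged 8.42 ± 0.66 percentage points (SD, n = 3, higher in 3 of 3). In bins of 25 bp its highest share, 8.66%, was in the bin starting 25 bp after the summit, on the side of the TSS. The bin starting at the summit had 7.53%. The full DRE was rarer, at 3.40% of summits against 0.65% and 0.24% of the flanks, and higher in 3 of 3 replicates (mean gap 2.71 ± 0.56). It was in 2.69% of all optimal summit windows, but in 6.58% of head-to-head and 6.33% of tandem upstream ones. The isolated minus head-to-head difference averaged -3.19 ± 0.31 percentage points (SD, lower in 3 of 3). In the optimal set its gap of 2.96 percentage points was 1.45 with summits supported by both other replicates without replicate 1, 2.45 without replicate 2 and 1.998 without replicate 3. It was 1.62 with support of all 3 and 1.22 among the strongest 50%, where the half-DRE gap was 6.10, against 9.88 in the full set. Of the 443 half-DRE matches under upstream summits, 243 were read along the gene strand and 200 against it. The TATA box, as in CG31145 and pyd, was in 17.9% of summit windows, against 14.8% of upstream and 8.18% of downstream flanks (mean gap to both 6.80 ± 0.87). This share was below the 20.1% of all optimal summit windows, with 23.6% at head-to-head and 17.4% at tandem upstream summits. The letters of the TATA box are all A and T, and GC was lower in the summit windows than in the flanks. The part of base composition in the gap to the flanks was not tested. The M1BP site was in 1.54% of windows, against 0.49% and 0.24% of flanks.

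Other motifs were less frequent under the upstream summits than beside them. CA repeats were in 5.34% of summit windows, against 9.39% of upstream and 14.7% of downstream flanks (mean gap -6.40 ± 0.31 percentage points SD, lower in 3 of 3). The DPE core, whose place in a promoter is downstream of the TSS, was in 6.40%, against 8.50 and 10.4%. GAGA, in 13.3%, and Pho letters, in 15.6%, lay below their flanks by 1.62 and 1.50 percentage points, but GAGA turned to 0.24 above them with a wider window and Pho to 0.93 above them with closer flanks. The GAGA share was nonetheless above the 11.1% of all optimal summit windows and the 6.71% of head-to-head and 7.39% of tandem upstream ones. The Zelda letters (2.43%), those of GATA, seen at nej and agt (6.96%), and those of CTCF (0.73%) had no common direction in the replicates.

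**Figure D5:**
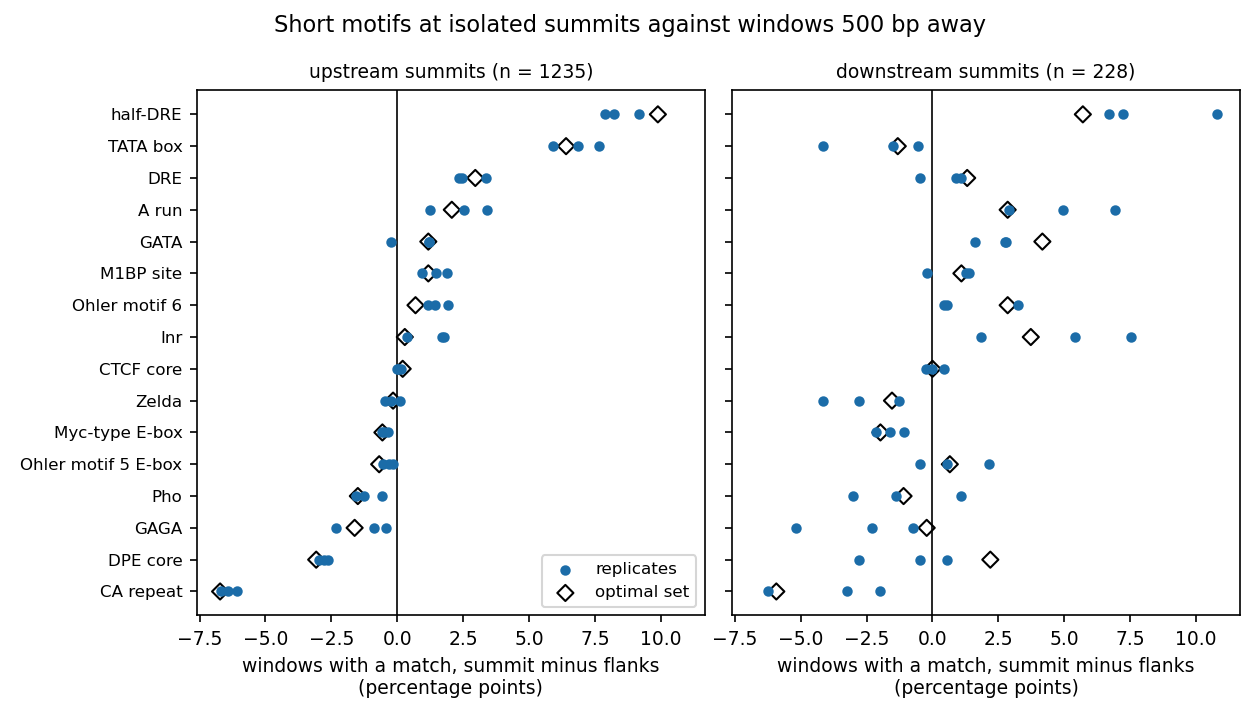
Difference in the percent of 101 bp windows that hold each of 16 motifs, summit minus the mean of both flanks centred 500 bp away (horizontal axis, percentage points), at upstream and downstream isolated summits. Filled points are replicates and open diamonds the optimal set; the half-DRE stands highest upstream, at 9.88 percentage points in the optimal set, and the CA repeat lowest, at -6.72.

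Among all 6-mers present in at least 5% of upstream summits, with reverse complements joined, CGATAG had the largest ratio to the flanks. It was in 10.2% of windows, against 3.32 and 2.11% of flanks, a ratio of 3.76, and in 10.6, 8.82 and 9.72% in the replicates. TATCGA came second, in 11.5% of windows, against 5.10 and 3.08%. Both overlap the DRE letters. The third, ATACCC, was in 6.56% of windows, with a ratio of 2.57. The other two, GGTATA at 5.18% and, at 8.83%, GTTATA, had ratios of 2.56 and 2.53. On the downstream side, with 228 windows, the leading 6-mer AGGGAT was in 6.14% of windows in the optimal set but in 3.97, 3.23 and 2.59% in the replicates, below the 5% used to select it.

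Downstream summits had the half-DRE in 18.9% of windows, close to the 19.9% of all optimal summit windows. Against their flanks, at 14.9% and 11.4%, these summits had a mean gap of 8.23 ± 2.22 percentage points (SD, higher in 3 of 3). The initiator letters were in 20.2% of them, against 16.7 and 16.2% of flanks, and also higher in 3 of 3 replicates (mean gap 4.93 ± 2.88). The TATA box did not stand out here: it was in 14.0% of downstream summit windows and in 21.9% of the flanks 500 bp before them. Against both flanks its difference was -1.32 percentage points, and it changed sign with closer flanks (3.51) and with a wider window (4.17).

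Half-DRE content followed distance from the TSS. It was in 33.6% of upstream isolated summit windows within 150 bp of the TSS and in 15.6% of those 151 to 500 bp away (mean difference 15.6 ± 0.51 percentage points over replicates, SD, higher near the TSS in 3 of 3). Isolated promoters without a summit also had it more often near the TSS. There it was in 6.23% in the 25 bp bin starting 50 bp upstream and in at most 3.77% in those starting 175 bp or more upstream. Over all upstream summits the share at isolated promoters, 23.3%, was lower than at head-to-head promoters, 32.4%, and tandem promoters, 33.2%. Within 150 bp of the TSS, the shares were 33.6% at isolated, 34.1% at head-to-head and 37.6% at tandem promoters. At that distance the isolated minus head-to-head difference was -0.41 percentage points (-4.41, -0.42 and -1.68 in replicates 1, 2 and 3, mean -2.17 ± 2.04 SD), and the isolated minus tandem difference averaged -5.37 ± 3.96. Over all upstream distances the mean differences were -9.33 ± 1.54 against head-to-head and -9.91 ± 2.57 against tandem summits. Distances within the 150 bp were not matched between the kinds of promoter.

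The strongest upstream summits carried the half-DRE less often than the weakest. It was in 18.5% of the stronger 50% of upstream isolated summits by rank and in 28.2% of the weaker 50%. The replicates gave 17.9, 18.0 and 17.3% in the stronger part, against 26.5, 24.5 and 25.6% in the weaker one. The order was the same within each band of distance: within 150 bp of the TSS the shares were 26.3% and 39.8%, and from 151 to 500 bp they were 13.5% and 17.9%, in the same direction in 3 of 3 replicates for both bands.

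The same motifs were counted in the promoter itself, from 250 bp before to 50 bp after each isolated TSS, whether or not a summit lay there. The half-DRE was in 46.8% of isolated promoters with a summit, against 37.6% of those without and 45.7% of all protein-coding promoters (mean difference with minus without 8.23 ± 0.77 percentage points SD). The M1BP site was in 7.42% of isolated promoters with a summit, against 2.48% of those without and 6.73% of all protein-coding promoters. For the DRE these shares were 7.91, 3.50 and 7.98%. GAGA letters were in 44.6%, against 37.6% (mean difference 7.75 ± 0.21), although they were no more frequent under the summits than beside them. The initiator was less frequent with a summit, in 50.5%, against 55.8% (mean difference -4.77 ± 0.61), and so was the TATA box, in 36.3%, against 39.4% (mean difference -3.31 ± 1.34). Each of these differences had 1 direction in 3 of 3 replicates. Over the whole window the base composition of both kinds of promoter was close, at 41.6% GC with a summit and 41.9% without.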

How the data were processed

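ChIP-seq peak lists of 3 biological replicates in 1 group were used. The deposited lists hold a signal per peak, set by the authors against a control file, per the notes deposited with the files. Its scale is not stated there, so it served only to rank peaks within a list. The optimal list holds peaks that passed an irreproducible discovery rate. Which aligner, peak caller and threshold were used is not given in the sources used here. The optimal peaks all lie among the 5202 strongest of the pooled list, and 63.6% of isolated summits sit at the centre of a peak of the commonest width, 430 bp. Lists on dm3 were not used.

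TSSs, on 6 chromosome arms, and exons came from Ensembl release 115. Replicate ranks are those of the overlapping region with the nearest summit. A TSS with both kinds of neighbour counted as head-to-head, and a summit on the TSS as downstream. Python 3.11.15 with numpy 2.4.6 and pandas 2.3.3 was used. Named are the 15 strongest upstream and 10 strongest downstream summits supported by all replicates, 1 per gene, and up to 3 genes per group. The members and lists were chosen with earlier results of these data known. Of the listed symbols, 5 matched no gene and were left out.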

Additional observations from a re-analysis of the deposited data

How the results depend on the processing

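Of 135 alternative values of the main results, 93 stayed within the replicate SD or on the same side of 0. Another 39 moved by more than that SD, and 3 turned round. Among the 39 are 3 values of the support difference that also changed sign, since its replicates had no common direction. That makes 6 sign changes in all, and a plain share cannot change sign. With a promoter window of 1000 bp, the isolated minus tandem share of promoters with a summit turned to 1.74 percentage points, and with an isolation distance of 250 bp to 7.82. Among the strongest 50% of optimal summits, the isolated minus head-to-head rank turned to -9.5. The cause was not tested.

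The isolated share of promoter summits was 39.0% with a promoter window of 200 bp and 54.5% with 1000 bp, 79.1% with an isolation distance of 250 bp and 35.4% with 1000 bp, 47.7% among the strongest 50%, 48.9% with support of all 3 replicates, 43.7% with 1 TSS per gene and 48.1% with no other TSS nearby on either strand. The upstream share was 81.9% and 79.0% with these windows, 86.5% with an isolation distance of 250 bp, 86.4% among the strongest 50% and 82.4% with 1 TSS per gene. The median distance was -82.5 bp with the window of 200 bp, -113.5 and -164 bp with isolation distances of 250 and 1000 bp, -157 bp among the strongest 50% and -123 bp with 1 TSS per gene. The share of isolated promoters with a summit was 8.18% and 21.8% with the windows, 21.98% and 12.8% with the isolation distances, 8.001% and 11.3% with the strongest 50% and the supported summits, whose lists are shorter by construction, and 14.6% with 1 TSS per gene. The support difference was -5.64 percentage points with the window of 200 bp, 3.21 and 0.45 with isolation distances of 250 and 1000 bp, 0.79 among the strongest 50% and -5.05 with support as a summit within 100 bp.

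Keeping the optimal summits supported by both other replicates, leaving out each replicate in turn, gave 48.8 to 49.6% for the isolated share, 12.1 to 12.4% for isolated promoters with a summit and -3.55 to -0.83 percentage points for the support difference. The optimal list itself was never rebuilt. Without peaks of the commonest width, a choice made after seeing the data, the isolated share was 51.8%, the upstream share 86.7% and the median distance -161 bp.

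Of 256 alternative values for motifs, 24 had another sign than the reported value. Of these, 8 were at motifs without a common direction in the replicates or with a mean within the SD, and 16 at the others. Ohler motif 6 upstream turned to -0.30 percentage points and Pho to 0.30 among the strongest 50%, and Pho to 0.93 with flanks 250 bp away. The initiator upstream turned to -0.30 among the strongest 50%, -0.054 with support of all 3 replicates, -1.54 with flanks 250 bp away, and -0.20 and -0.050 without replicate 2 and replicate 3, with 0.40 without replicate 1. GAGA upstream turned to 0.24 with windows of 100 bp either side, and downstream to 1.75 there and 0.50 with weaker summits within 500 bp left out. Downstream, the CA repeat turned to 2.19 with the wider window, and the TATA box to 4.17 there, 3.51 with closer flanks, 0.49 among the strongest 50% and 0.29 without replicate 1, with -0.82 and -0.26 without the others. The upstream half-DRE gap stayed between 6.10 and 13.0, and the GC gap between -6.29 and -5.13.

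Limits: no list holds read counts, so no interval reflects sequencing depth. Wilson intervals cover counting error only. No control was analysed. The exact sign-flip permutation test over 3 replicates cannot go below 0.25. The 3 replicates and the optimal set share libraries. Most isolated summits sit at the exact centre of a peak of 1 fixed width. No paired analysis was possible because the labels give only 1 group.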
